A study of Mus musculus with 4 samples.

Results

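The 40 DNA replication genes described here were taken by symbol from a given list, and all 40 were found in the deposited matrices. They encode the proteins that license origins (4 genes), unwind DNA (12), prime and synthesise it (8), load and form the sliding clamp (6), bind single strands or remove flaps (4), supply nucleotides (3), and guard forks or assemble chromatin behind them (3). Their UMI counts (molecular tags that count each captured transcript once) were followed in single cells of mouse ovaries, in cell types recognised by marker genes, above all granulosa, theca and blood endothelial cells, and in the 4 treatment libraries.

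Prepubertal mice, treated from postnatal day 25, formed 4 groups with 1 single-cell library each. Controls received PBS/saline. The doxorubicin group received 2 weekly doses of doxorubicin, an anthracycline that poisons topoisomerase II, at 3 mg/kg. The doxorubicin+AMH group received the same doxorubicin with recombinant human anti-Müllerian hormone (AMH), a granulosa cell hormone that restrains follicle growth, at 0.75 mg/kg, and the AMH group received that hormone alone at the same dose. Collection followed the second doxorubicin dose by 4 hours, and each library pooled 5 animals, with 1 ovary from each. The schedule of AMH is not given. The strain is not given in the sources used here. Because animals were pooled, the spread between animals was not measured and no difference between groups could be tested. All intervals are 95% intervals for counting error only. The 4 contrasts share libraries and are given side by side.

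Before a cell divides, the origin recognition complex with Cdc6 and Cdt1 loads the Mcm2 to Mcm7 ring onto DNA, and Cdc45 with the GINS complex turns that ring into the active helicase. Polymerase alpha with primase starts each strand, replication factor C loads the clamp PCNA, and polymerases delta and epsilon extend the new strand. Many of these genes are transcribed under E2F factors as cells enter S phase, and granulosa cells of growing follicles are known as an actively dividing compartment of the ovary.

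Promoters were read from RefSeq (build GRCm38.p6), whose table held 36 promoters for 33 of the 40 genes, each covering 250 bases before to 50 after the gene start. An E2F-type motif, searched on both strands as TTTCCCGC, TTTGGCGC, TTTCGCGC, TTTGGCGG, TTTCCCGG or TTTCGCGG, lay in 16 of the 36 (44.4%) and in 3.81% of all 32851 promoters of that length. These forms can overlap each other on opposite strands. CCAAT, the letters bound by NF-Y, lay in 24 of the 36 (66.7%) against 37.4% of all promoters. The cell cycle homology region, searched as TTTGAA or TTCGAA, lay in 7 of the 36 (19.4%) against 19.2%. The 250 bases before the start are shown for 3 genes that recur in the results, Mcm5 and Mcm6, which encode subunits of the helicase ring, and Pola1, which encodes the catalytic subunit of polymerase alpha. They lie at chr8:75109259-75109508 (plus strand, Mcm5), chr1:128359706-128359955 (minus strand, Mcm6) and chrX:93632156-93632405 (minus strand, Pola1), upstream of the annotated gene. Each is written 5′ to 3′ on the gene's strand, and capitals mark E2F-type matches.
Mcm5: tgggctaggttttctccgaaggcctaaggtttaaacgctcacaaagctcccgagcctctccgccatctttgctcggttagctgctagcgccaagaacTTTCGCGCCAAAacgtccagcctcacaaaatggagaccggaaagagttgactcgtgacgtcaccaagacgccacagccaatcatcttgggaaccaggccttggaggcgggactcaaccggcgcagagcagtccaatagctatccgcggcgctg
Mcm6: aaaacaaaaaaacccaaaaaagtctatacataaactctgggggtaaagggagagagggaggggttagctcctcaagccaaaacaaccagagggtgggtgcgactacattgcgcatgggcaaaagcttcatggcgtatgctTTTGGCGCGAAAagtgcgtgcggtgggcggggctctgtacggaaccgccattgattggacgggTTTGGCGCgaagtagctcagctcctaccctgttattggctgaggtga
Pola1: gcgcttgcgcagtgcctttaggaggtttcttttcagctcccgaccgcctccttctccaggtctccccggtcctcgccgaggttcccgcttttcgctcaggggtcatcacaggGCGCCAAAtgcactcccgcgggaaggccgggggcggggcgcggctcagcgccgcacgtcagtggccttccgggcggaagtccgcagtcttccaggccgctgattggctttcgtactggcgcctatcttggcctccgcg
Mcm5 holds 2 overlapping matches, Mcm6 holds 3 and Pola1 holds 1. A match of letters is a description and does not show binding.

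The 4 libraries held 7141 to 9478 cells and 138647495 to 178279122 UMIs as deposited, and 28631 cells were kept in all. They formed 32 clusters, of which 28 were named by markers, and pairs of libraries shared 6 to 19 cell barcodes. Granulosa-like cells numbered 1941, 1872, 1970 and 2361 in the control, doxorubicin, doxorubicin+AMH and AMH libraries, the order used throughout. Theca-like cells numbered 861, 624, 776 and 950, and blood endothelial-like cells 171, 123, 63 and 100. The granulosa-like clusters 26 and 30 came almost entirely from the doxorubicin library, with 177 of 183 and 78 of 80 cells. Clusters 13 and 14 carried granulosa markers but were left unnamed for low UMI counts, by thresholds set after values had been seen; cluster 13 held 133, 128, 213 and 436 cells and cluster 14 held 73, 98, 146 and 237.

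Among 6 classes compared, the summed level of the replication genes was highest in granulosa-like cells in 3 libraries and in blood endothelial-like cells in the control library. Levels are given as CPM, the UMIs of a gene per 1000000 UMIs of all genes, summed over the cells of a class in 1 library. In granulosa-like cells the 40 genes summed to 1197, 1197, 1356 and 1127 CPM, with the doxorubicin+AMH library above the others. In theca-like cells they summed to 515, 551, 635 and 590 CPM, lowest in control. In blood endothelial-like cells they summed to 1223, 1011, 822 and 629 CPM, highest in control and lowest in AMH. Without the cells over 3 times the median UMIs of their class and library they stood at 748, 1048, 820 and 663 CPM, with control below doxorubicin and doxorubicin+AMH. Granulosa-like cells without theirs stood at 1237, 1240, 1417 and 1235 CPM, above the blood endothelial-like cells in every library. Stroma-like cells held 853, 844, 882 and 856 CPM and mural smooth muscle-like cells 631, 619, 599 and 596 CPM, a narrow range in both. Macrophage-like cells held 670, 670, 1008 and 636 CPM, from 191, 91, 92 and 186 cells. A smaller share of replicating cells and less of this RNA per cell cannot be told apart in such sums.

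**Figure D1:**
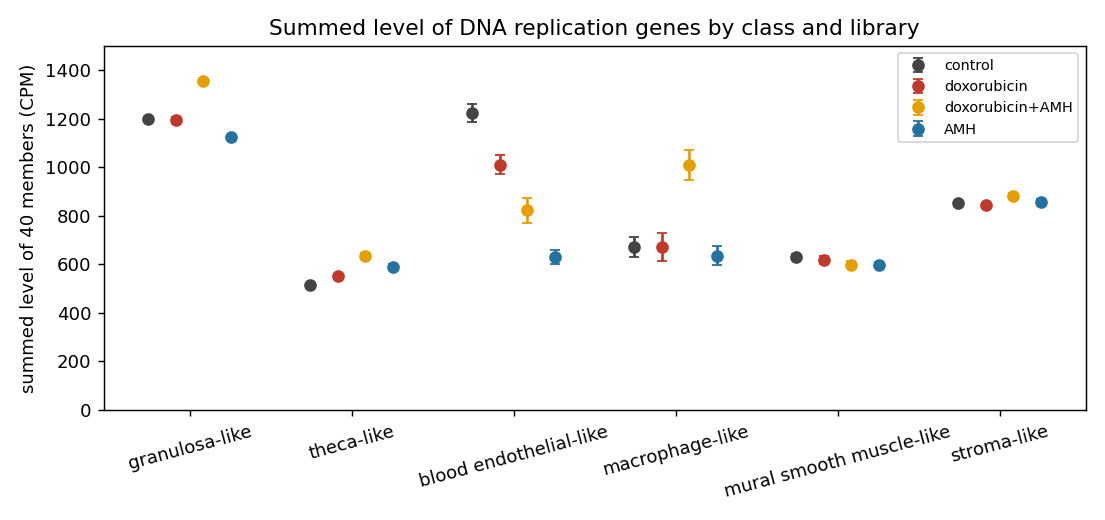
Summed level of the 40 replication genes (y axis, CPM) in 6 cell classes and 4 libraries (colours), with 95% Poisson intervals for counting error. Blood endothelial-like cells span 629 to 1223 CPM, but 663 to 1048 CPM without the cells over 3 times the median UMIs, which are included in the plot, and stroma-like cells only 844 to 882 CPM.

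Single cells showed how this RNA was spread. Each cell was thinned to 3000 UMIs, shallower cells were left out, and a cell with at least 5 UMIs of the 40 genes was called replication-high, which is a range of values and not a cell type. Among granulosa-like cells 22.6% (20.8 to 24.6), 23.1% (21.2 to 25.1), 29.0% (27.0 to 31.1) and 23.3% (21.6 to 25.1) were replication-high, with 23, 34, 49 and 116 cells left out. Only the interval of the doxorubicin+AMH library lay apart from the others. Many cells sat near the cut, with 92, 126, 118 and 111 cells at 5 UMIs and 161, 167, 179 and 225 at 4. Without thinning the shares were 92.2, 88.9, 91.8 and 85.3%. Erythroid-like cells, taken as background, gave 0 of 40, 0 of 47, 0 of 53 and 2 of 26 cells (7.69%), which allows shares of up to 8.81, 7.55, 6.72 and 25.1%. Without thinning they gave 5.00, 8.47, 5.33 and 9.76%. Their median depths were 5503.5, 6553, 5516 and 3928 UMIs, against 24321, 24241.5, 24067.5 and 20720 in granulosa-like cells. Theca-like cells gave 2.85, 3.79, 5.42 and 4.89%, with 20, 43, 19 and 29 left out and 85.7, 88.0, 78.5 and 72.2% without thinning. These theca-like shares lie within what the erythroid-like cells allow and are not read as above background. That limit rests on 26 to 53 erythroid-like cells per library, so it cannot show the shares to be at background either. The granulosa-like share of the AMH library also lies within the limit of that library, which rests on 26 erythroid-like cells, while those of the other libraries lie above theirs.

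Granulosa-like clusters differed widely in these genes. Cluster 1, led by Gm41271, held 37.2, 35.3, 41.3 and 37.9% replication-high cells, and cluster 10, led by Cdh12 with Amh among its top genes, 34.0, 36.9, 35.2 and 29.3%. Cluster 11, led by Cyp19a1, the aromatase of oestrogen synthesis, held 15.1, 15.5, 21.2 and 20.5%, of which the AMH share lies within the limit of its library. Cluster 5, led by Grm8, held 4.96, 3.12, 7.59 and 6.93%, with intervals below those of clusters 1 and 10 in every library and within what the erythroid-like cells of the same library allow in 3 of them, all but doxorubicin+AMH. Summed levels ran alike, at 1619, 1549, 1703 and 1596 CPM in cluster 1 and 1451, 1556, 1651 and 1365 CPM in cluster 10. Cluster 11 held 1033, 913, 1153 and 1112 CPM and cluster 5 held 608, 582, 630 and 626 CPM. The clusters were formed from expression, so these values describe them. The unnamed cluster 14 held 48.8, 52.3, 52.7 and 49.7% replication-high cells. Among theca-like cells, cluster 15, led by Cpa1, held 8.55, 14.7, 13.1 and 14.5%, while cluster 9, led by Cyp17a1, the enzyme of androgen synthesis, held 2.02, 1.53, 1.52 and 1.49%.

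**Figure D2:**
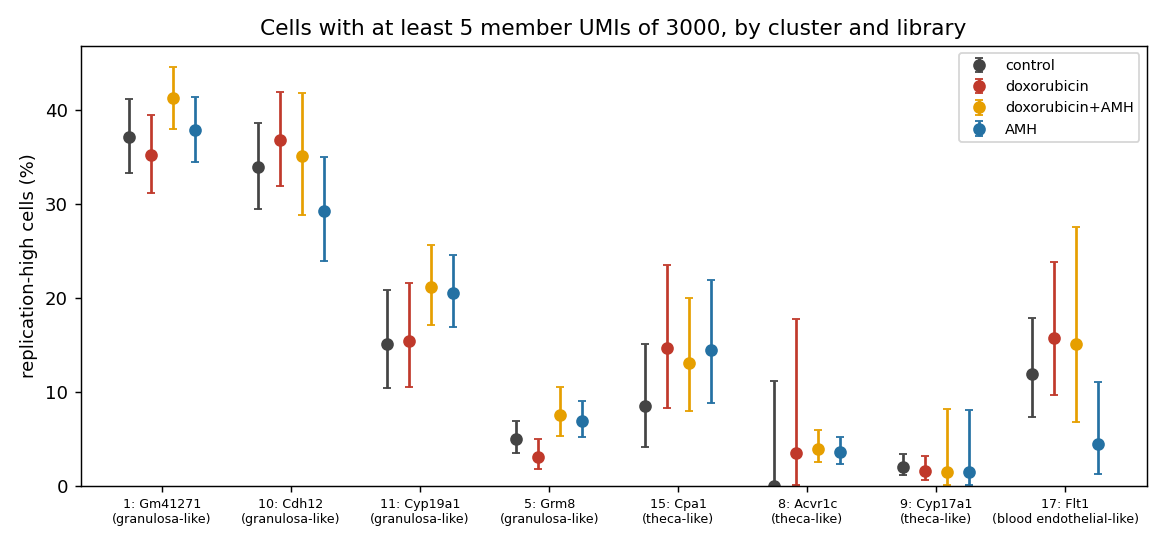
Share of replication-high cells (y axis, percent, after thinning to 3000 UMIs) by cluster (x axis, with its leading gene) and library (colours), with exact 95% binomial intervals. Clusters 1 and 10 lie between 29.3 and 41.3%, and cluster 5 between 3.12 and 7.59%.

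In granulosa-like cells pooled over clusters the summed level did not differ beyond counting error between doxorubicin and control, while the doxorubicin+AMH library stood above both the AMH and the doxorubicin library. The log2 ratio of the summed level was 0.00 (-0.01 to 0.01) for doxorubicin / control and 0.27 (0.25 to 0.28) for doxorubicin+AMH / AMH. It was -0.09 (-0.10 to -0.07) for AMH / control and 0.18 (0.17 to 0.19) for doxorubicin+AMH / doxorubicin. Within clusters doxorubicin / control went both ways, at -0.06 (-0.09 to -0.04) in cluster 1, -0.06 (-0.10 to -0.02) in cluster 5, 0.10 (0.08 to 0.13) in cluster 10 and -0.18 (-0.23 to -0.13) in cluster 11. The pooled AMH / control value lay above 0 with median-of-ratios scaling, with each cell weighted equally and as the mean over clusters 1, 5, 10 and 11. As the mean over those clusters, doxorubicin+AMH / AMH was 0.11, from 0.09, 0.01, 0.27 and 0.05 in the order named. Cluster 1, high in these genes, held 907 of 1970 doxorubicin+AMH cells and 813 of 2361 AMH cells, and cluster 5, low in them, held 458 and 804. For doxorubicin+AMH / doxorubicin clusters 1, 5 and 10 stood at 0.14 (0.12 to 0.16), 0.11 (0.07 to 0.16) and 0.09 (0.06 to 0.12). There 31 of 38, 11 of 18 and 28 of 39 genes lay above 0. Cluster 11 reached 0.34 (0.29 to 0.38) in that contrast, with 30 of 31 genes above 0 and a median of 0.25 against -0.02 over 8713 genes.

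Single genes were compared as log2 ratios of CPM with 2 CPM added, for genes that reached 10 CPM when averaged over the libraries of a class. In granulosa-like cells 38 of the 40 genes passed. Cdc6, which helps load the Mcm ring, stood at 6.18, 6.46, 7.46 and 6.21 CPM and Gins3, a GINS subunit, at 3.64, 3.70, 3.39 and 3.11 CPM, and neither passed. For doxorubicin / control 22 genes lay above 0 and 16 below, with a median of 0.03 against -0.02 over 8826 genes. None was past 1.5-fold, where 0.125% of all genes were higher and 0.147% lower. For doxorubicin+AMH / AMH the 38 genes that passed lay above 0, with a median of 0.24 against 0.00, and none was past 1.5-fold (0.181% of all genes higher, 0.623% lower). Within clusters 1, 5, 10 and 11 those above 0 numbered 30 of 38, 11 of 18, 37 of 39 and 18 of 31, with medians of 0.09, 0.03, 0.27 and 0.04. For AMH / control 10 lay above 0 and 28 below, with a median of -0.09 against -0.07, and none was past 1.5-fold (0.793% higher, 2.2% lower). With median-of-ratios scaling 19 lay above 0, so the direction of that contrast depends on the scaling. For doxorubicin+AMH / doxorubicin 33 lay above 0 and 5 below, with a median of 0.15 against -0.05, and none was past 1.5-fold (1.11% higher, 3.07% lower). That scaling gave 0.181% of all genes higher and 0.125% lower for doxorubicin / control, 1.22 and 1.55% for AMH / control, and 1.56 and 2.40% for doxorubicin+AMH / doxorubicin.

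Among the roles, nucleotide supply differed most for doxorubicin+AMH / AMH in granulosa-like cells, with 105, 109, 143 and 107 CPM and a log2 ratio of 0.43. Rrm2, the regulated subunit of ribonucleotide reductase, stood at 24.8, 30.4, 39.2 and 27.5 CPM, lowest in control and highest in doxorubicin+AMH. Its log2 ratio was 0.28 (0.20 to 0.39) for doxorubicin / control and 0.48 (0.42 to 0.60) for doxorubicin+AMH / AMH, with intervals computed without the added CPM. Rrm1, the large subunit of that enzyme, stood at 45.3, 43.2, 57.5 and 45.8 CPM. Tyms, which makes thymidylate, stood at 34.7, 35.7, 46.7 and 33.4 CPM. Both were highest in doxorubicin+AMH and close together in the other libraries.

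The helicase genes summed to 323, 328, 364 and 304 CPM in granulosa-like cells. Mcm6 stood at 65.9, 65.7, 66.4 and 57.0 CPM and Mcm7 at 66.8, 62.5, 65.5 and 55.8 CPM, both lowest in AMH. Mcm3 stood at 40.9, 43.6, 56.8 and 45.9 CPM, highest in doxorubicin+AMH, with 0.37 (0.31 to 0.45) for doxorubicin+AMH / doxorubicin. Mcm4, at 26, 30.1, 31.5 and 24.1 CPM, and Mcm5, at 20, 23, 25.5 and 21.3 CPM, were higher in the library with doxorubicin in both pairs. The log2 ratios were 0.20 (0.11 to 0.31) and 0.36 (0.29 to 0.48) for Mcm4. Those of Mcm5 were 0.19 (0.09 to 0.31) and 0.24 (0.16 to 0.36).

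Clamp and loader genes summed to 340, 332, 375 and 319 CPM. Pcna, the sliding clamp, stood at 99.7, 99.6, 112 and 97.9 CPM, highest in doxorubicin+AMH. Rfc1, the large loader subunit, stood at 104, 95.3, 97.4 and 92.6 CPM, highest in control. Rfc4, another loader subunit, had the highest ratio of the 38 genes for doxorubicin+AMH / AMH, 0.53 (0.48 to 0.63), from 40.6, 39.8, 53.4 and 36.4 CPM. The origin licensing genes summed to 90.8, 90, 104 and 86.3 CPM, and Orc6, of the origin recognition complex, stood at 54.0, 55.0, 62.9 and 52.9 CPM. Rpa3, the small subunit of the single strand binding protein, stood at 50.2, 54.4, 70.2 and 54.8 CPM, again highest in doxorubicin+AMH. Its large subunit Rpa1 did not share that pattern, at 15.9, 16.8, 14.9 and 14.5 CPM, lower in the libraries with AMH.

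Primase and polymerase genes summed to 188, 177, 185 and 162 CPM, and their AMH / control ratio of -0.22 was the lowest of the 7 roles. Pola1 stood at 62.5, 57.7, 56.5 and 53.3 CPM, with -0.22 (-0.29 to -0.17) for AMH / control and -0.03 (-0.10 to 0.04) for doxorubicin+AMH / doxorubicin. Pole, the catalytic subunit of polymerase epsilon, stood at 12.5, 10.9, 10.2 and 8.55 CPM, with -0.46 (-0.70 to -0.40) for AMH / control. Both were highest in control. The checkpoint and chromatin assembly genes Clspn, Chaf1a and Chaf1b summed to 50.8, 51.8, 58.9 and 47.2 CPM.

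**Figure D3:**
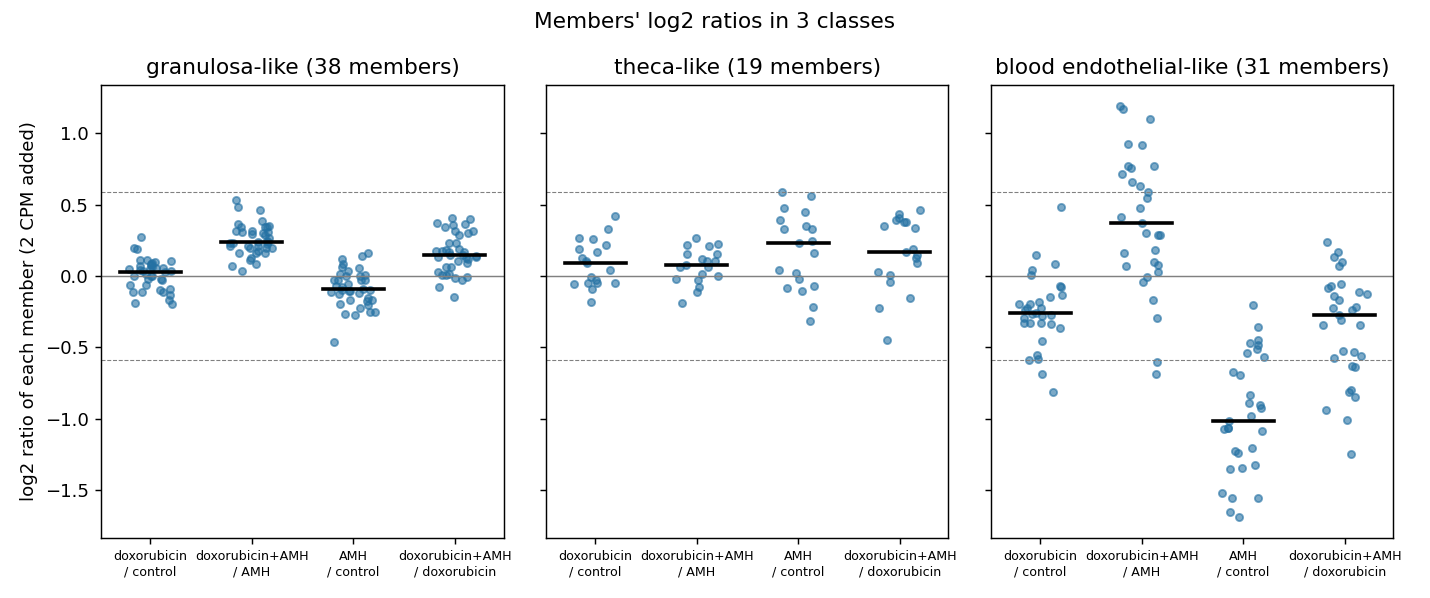
Log2 ratio of each gene that passed the filter (points, 2 CPM added) for 4 contrasts in 3 cell classes. The 38 granulosa-like genes for doxorubicin+AMH / AMH lie above 0, and the 31 blood endothelial-like genes for AMH / control, deep cells included, lie below it.

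Mitotic genes differed further than replication genes between the doxorubicin+AMH library and the libraries beside it in granulosa-like cells. Of 28 genes of a G2/M list 27 passed, and the 27 lay above 0 for doxorubicin+AMH / AMH (median 0.47, 3 past 1.5-fold beside 0.181% of all genes) and for doxorubicin+AMH / doxorubicin (median 0.55, 11 past beside 1.11%). Within clusters 1, 5, 10 and 11 the doxorubicin+AMH / AMH medians were 0.23, 0.16, 0.63 and 0.18, with 28 of 28, 11 of 14, 28 of 28 and 25 of 27 genes above 0. There 15 genes of cluster 10 were past 1.5-fold, beside 0.877% of all genes in it, and none of the other clusters was, beside 0.105, 0.138 and 0.471% in clusters 1, 5 and 11. The doxorubicin+AMH / doxorubicin medians were 0.34, 0.39, 0.56 and 0.29, with every gene that passed above 0 in these 4 clusters. For doxorubicin / control 6 lay above 0 and 21 below, with a median of -0.09. Ube2c, which marks mitotic proteins for destruction, stood at 132, 143, 233 and 161 CPM. Cenpa, the centromere histone, stood at 66.0, 69.5, 109 and 74.2 CPM, Cdc20 at 32.1, 34.1, 47.7 and 32.2 CPM, and the cyclin gene Ccnb1 at 27.1, 26.9, 41.4 and 29.7 CPM. Of 49 other replication genes 34 passed, with 17 above 0 and 17 below for doxorubicin / control and 32 above for doxorubicin+AMH / AMH (median 0.16). Among them Tipin, a fork protection gene, stood at 49.8, 55.3, 60.7 and 46.4 CPM, and Ccne2, a cyclin of S phase entry, at 19.9, 19.1, 23.9 and 22 CPM. Log2 ratios for doxorubicin / control and doxorubicin+AMH / AMH were 0.15 and 0.17 for E2f1 and 0.17 and 0.12 for Asf1a. Those for AMH / control and doxorubicin+AMH / doxorubicin were -0.17 and -0.14 for Orc3 and -0.17 and -0.13 for Mcm9. Cdkn1a, the p53 target that inhibits cyclin-dependent kinases, stood at 11.8, 38.3, 22.8 and 15.4 CPM.

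The genes were not raised equally in granulosa-like cells rich in the Mcm ring. Cells with at least 3 UMIs of Mcm2 to Mcm7 after thinning (helicase-high) numbered 120 of 1918, 97 of 1838, 139 of 1921 and 139 of 2245 and were set against the other cells of their library. In control Cdc6 was most raised, at 36.1 against 3.71 CPM in control (13 and 20 UMIs), which is 9.74-fold. Its fold in the other libraries was 8.97, 3.56 and 5.05. It lay below Clspn (4.64), Gins1 (4.27), Gins3 (4.27) and Prim1 (3.79) in doxorubicin+AMH and below Clspn (5.80) in AMH, so its lead held in control and doxorubicin. In control Chaf1b, a chromatin assembly subunit, followed at 4.68-fold, then the helicase activator Mcm10 at 4.58, Pole at 4.44 and the GINS gene Gins2 at 4.33. That order held in control only. In doxorubicin Clspn (6.31), Chaf1a (6.23), Prim1 (4.95) and Pole2 (4.59) lay above Chaf1b (4.26). In doxorubicin+AMH Chaf1b, Mcm10, Pole and Gins2 stood at 2.76, 2.63, 2.36 and 2.36. Least raised in control were Gins3 at 0.881-fold (1 and 17 UMIs), Gins4 at 1.29, Rfc1 at 1.5, Rpa3 at 1.65 and Pcna at 1.79, from 153 against 85.3 CPM. Gins3 reached 4.49-fold in doxorubicin, so its place rests on few UMIs, while Rfc1 lay between 1.5- and 1.81-fold in the 4 libraries. Gins4 reached 2.47-fold in doxorubicin, and Rpa3 and Pcna reached 2.56- and 2.43-fold in AMH. Mitotic genes ranged in control from 0.940-fold (Ccnb2) to 4.84-fold (Aurkb). In the other libraries Ccnb2 stood at 1.51, 1.06 and 1.13 and Aurkb at 3.69, 2.24 and 1.34, so these ends hold in control only. The 6 genes that made the split are left out, and cells of 1 library share their source.

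**Figure D4:**
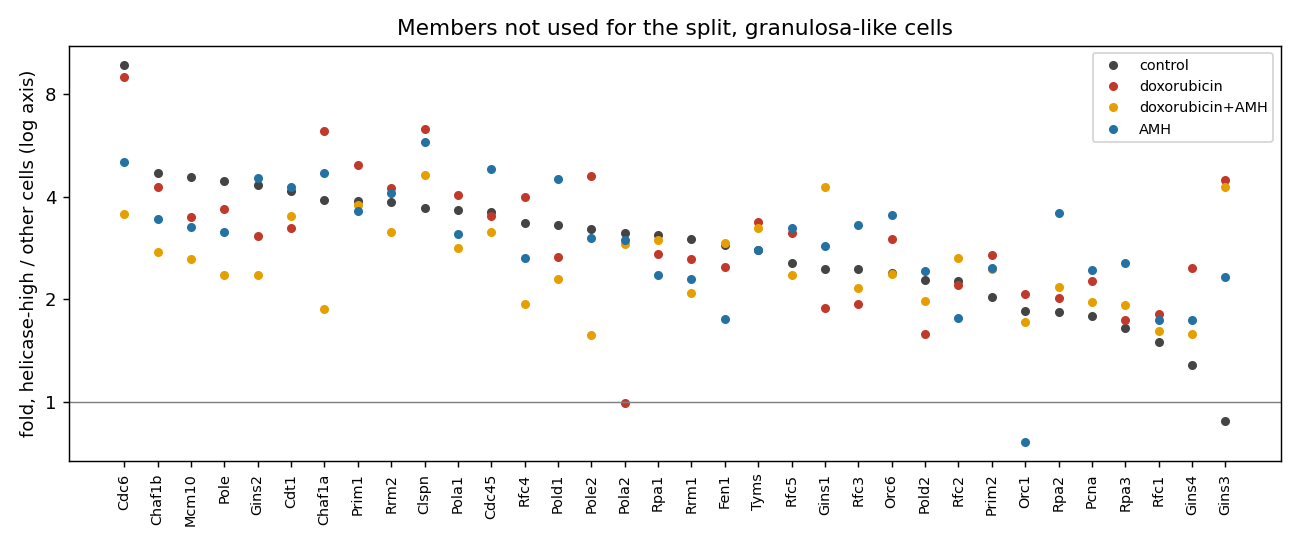
Fold difference between helicase-high and other granulosa-like cells (y axis, log scale) for each gene not used for the split (x axis), in 4 libraries (colours). Cdc6 leads in control at 9.74-fold, and Rfc1 lies between 1.5- and 1.81-fold.

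Theca-like cells had lower levels, and 19 of the 40 genes passed the filter; the others stood between 0.679 and 10.9 CPM. Their clusters differed between libraries. Cluster 9 held 701, 493, 66 and 68 cells and cluster 8, led by Acvr1c, 41, 35, 573 and 756, so contrasts of libraries with and without AMH set largely different clusters against each other. The log2 ratio of the summed level was 0.10 (0.06 to 0.13) for doxorubicin / control and 0.11 (0.07 to 0.14) for doxorubicin+AMH / AMH. It was 0.19 (0.16 to 0.23) for AMH / control and 0.21 (0.17 to 0.24) for doxorubicin+AMH / doxorubicin. The first turned to -0.02 in cells gated by their own markers, and the second to -0.04 without cells over 3 times the median UMIs. Doxorubicin+AMH / doxorubicin was 0.00 without those cells, and AMH / control 0.10 with own-marker gating and 0.11 with a mitochondrial limit of 10%. The medians that set the cut on UMIs were 20551, 24552.5, 14374 and 12850.5, so it differed between libraries. In cluster 9 doxorubicin / control was -0.03 (-0.07 to 0.01) and AMH / control 0.00 (-0.10 to 0.10). There doxorubicin+AMH / AMH was -0.05 (-0.20 to 0.10) and doxorubicin+AMH / doxorubicin -0.02 (-0.13 to 0.09), with 9 and 8 of 17 genes above 0. In cluster 8, with 573 and 756 cells, doxorubicin+AMH / AMH was 0.00 (-0.05 to 0.05), with 8 of 19 genes above 0.

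Cluster 15, present in every library with 119, 96, 137 and 126 cells, showed the clearest theca-like difference, at 700, 935, 947 and 862 CPM, lowest in control. Its median cell held 2.11 times the median UMIs of its library, and the values given for it include the deep cells. There the summed ratios were 0.42 (0.34 to 0.50) for doxorubicin / control, with 23 of 26 genes above 0, and 0.30 (0.23 to 0.38) for AMH / control. The median gene stood at 0.32 for doxorubicin / control, against 0.04 over 8524 genes, and at 0.25 for AMH / control, against -0.02. They were 0.13 (0.07 to 0.20) for doxorubicin+AMH / AMH and 0.02 (-0.05 to 0.09) for doxorubicin+AMH / doxorubicin. The interval of its replication-high share in control, 4.17 to 15.2%, overlapped those of the other libraries, so no order is read from the shares. Those of the doxorubicin (8.30 to 23.5%) and doxorubicin+AMH (from 7.98%) libraries lay above the erythroid-like limit of the same library.

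Of the 19 theca-like genes, 11 lay above 0 and 8 below for doxorubicin / control, with a median of 0.09 against 0.00 over 8626 genes, and none was past 1.5-fold (0.777% of all genes higher, 0.29% lower). For doxorubicin+AMH / AMH 14 lay above and 5 below, with a median of 0.07 against 0.00, and none was past it (0.707% higher, 0.394% lower). Of 18 that passed without the deep cells 5 lay above. For AMH / control 13 lay above and 6 below, with a median of 0.23 against -0.05. There 1 of the 19, Rrm1, was past 1.5-fold higher, beside 7.21% of all genes higher and 8.29% lower, and it was not with 5 CPM added, a minimum of 20 CPM, own-marker gating, a mitochondrial limit of 10% or doublets kept. For doxorubicin+AMH / doxorubicin 15 lay above and 4 below, with a median of 0.16 against -0.04, and none was past it (6.12% higher, 8.21% lower).

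Orc6 stood at 25.9, 31.5, 42.3 and 36.0 CPM in theca-like cells, lowest in control, and was higher with doxorubicin and with AMH in every pair. Its log2 ratios were 0.26 (0.13 to 0.44) for doxorubicin / control and 0.45 (0.32 to 0.63) for AMH / control. Rpa3, at 27.5, 37.5, 37.7 and 31.1 CPM, was higher in the libraries with doxorubicin, with 0.42 (0.30 to 0.59) for doxorubicin / control. Rrm1 stood at 13.7, 16.2, 21.6 and 21.6 CPM and Mcm4 at 9.06, 10.6, 14.5 and 13.4 CPM, both higher in the libraries with AMH, though Mcm4 turned to -0.02 for doxorubicin+AMH / doxorubicin without the deep cells. Gins4, another helicase activator, stood at 19.6, 22.3, 21.6 and 19.3 CPM, slightly higher with doxorubicin. Pold2, a subunit of polymerase delta, went the other way with AMH, at 21.7, 20.8, 14.7 and 17.1 CPM, with -0.32 (-0.55 to -0.15) for AMH / control and -0.45 (-0.73 to -0.28) for doxorubicin+AMH / doxorubicin. Mcm6, at 26.1, 27.0, 24.1 and 22.2 CPM, was lower there too, with -0.22 (-0.41 to -0.06) for AMH / control. Mcm2, at 10.9, 12.0, 10.0 and 10.3 CPM, had intervals spanning 0. Pola1, at 23.4, 20.3, 26.2 and 27.8 CPM, and Rpa1, at 15.7, 15.1, 17.4 and 19.0 CPM, were lower with doxorubicin in both pairs, with only the interval of Pola1 for doxorubicin / control (-0.38 to -0.02) clear of 0. Rrm2 failed the filter at 3.02, 8.28, 8.45 and 5.71 CPM (80, 173, 146 and 109 UMIs), lowest in control.

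Mitotic genes were low in control theca-like cells. Of the G2/M list 13 passed, and the 13 lay above 0 for doxorubicin / control (median 1.23, 12 past 1.5-fold beside 0.777% of all genes) and AMH / control (median 1.07, 12 past beside 7.21%). Most of the 13 lay under 10 CPM in control and passed the filter through the other libraries, which favours ratios above 0 against control. These counts are therefore descriptions, and the same filter was applied without the deep cells. Ube2c stood at 9.77, 38.0, 44.2 and 27.3 CPM, Cenpf, a kinetochore gene, at 9.70, 21.7, 31.0 and 17.1 CPM, and Cenpa at 7.47, 20.3, 30.4 and 18.0 CPM. The cyclin gene Ccnb2 stood at 8.07, 13.7, 21.6 and 13.3 CPM, and all of these were lowest in control. Of the G2/M genes 11 passed without the deep cells, the 11 past 1.5-fold higher for doxorubicin / control and 10 for AMH / control (0.861 and 7.47% of all genes), while for doxorubicin+AMH / doxorubicin 13 of 13 above 0 became 2 of 11. Of the other replication genes 25 passed, with 15 above 0 for doxorubicin / control and 11 for AMH / control. Dnmt1, the maintenance DNA methyltransferase, stood at 15.5, 19.2, 24.7 and 20.2 CPM, and Pold4, of polymerase delta, at 23.1, 24.1, 35.3 and 35.1 CPM. Rnaseh2c stood at 108, 124, 103 and 88.4 CPM and Mcm9 at 23.3, 20, 17.5 and 19.2 CPM. Markers moved with AMH in this class. The 7 theca markers summed to 17489, 16576, 6998 and 6281 CPM, the 8 granulosa markers to 1201, 1128, 627 and 688 CPM and the 7 stroma markers to 809, 907, 1625 and 1451 CPM. Of the 12 dissociation stress genes 12 lay above 0 for AMH / control, with a median of 0.43 and 5 past 1.5-fold (7.21% of all genes), and Hspa1a stood at 112, 127, 117 and 331 CPM. The part of these genes and markers in the replication and mitotic genes was not tested.

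Blood endothelial-like cells showed the widest differences of the 3 classes, and those from the control library changed most without the cells over 3 times the median UMIs. The log2 ratio of the summed level was -0.27 (-0.34 to -0.20) for doxorubicin / control and 0.39 (0.27 to 0.50) for doxorubicin+AMH / AMH. It was -0.96 (-1.04 to -0.88) for AMH / control and -0.30 (-0.41 to -0.19) for doxorubicin+AMH / doxorubicin. Cells over 3 times the median UMIs of their class and library numbered 31 of 171, 22 of 123, 10 of 63 and 22 of 100, and they held 72.6, 49.9, 50.8 and 57.7% of the UMIs of the 40 genes. Those medians were 10214, 12242, 10487 and 17917.5 UMIs. The cut was thus highest in AMH, and cells of a depth left out in control could be kept there. In control they stood at 1608 CPM and the other cells at 748 CPM. The same pairs were 977 and 1048 CPM in doxorubicin, 824 and 820 CPM in doxorubicin+AMH, and 606 and 663 CPM in AMH. Without the deep cells, doxorubicin / control was 0.49 (0.37 to 0.60), a reversal, and AMH / control was -0.18 (-0.31 to -0.05). The contrasts without the control library stayed within their intervals, at 0.31 (0.14 to 0.47) for doxorubicin+AMH / AMH and -0.35 (-0.51 to -0.20) for doxorubicin+AMH / doxorubicin. Other settings moved them outside. Doxorubicin+AMH / AMH was 0.12 with own-marker gating, 0.10 with a mitochondrial limit of 10%, 0.18 with a minimum of 500 UMIs per cell and 0.26 with doublets kept, and doxorubicin+AMH / doxorubicin was -0.13 with doublets kept and -0.46 with the 10% limit. With each cell weighted equally doxorubicin / control was 0.29 and AMH / control -0.39. Doublets are one source of cells with very high UMI counts, and with them kept AMH / control was -0.64; their part among the deep cells that remained was not tested.

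**Figure D5:**
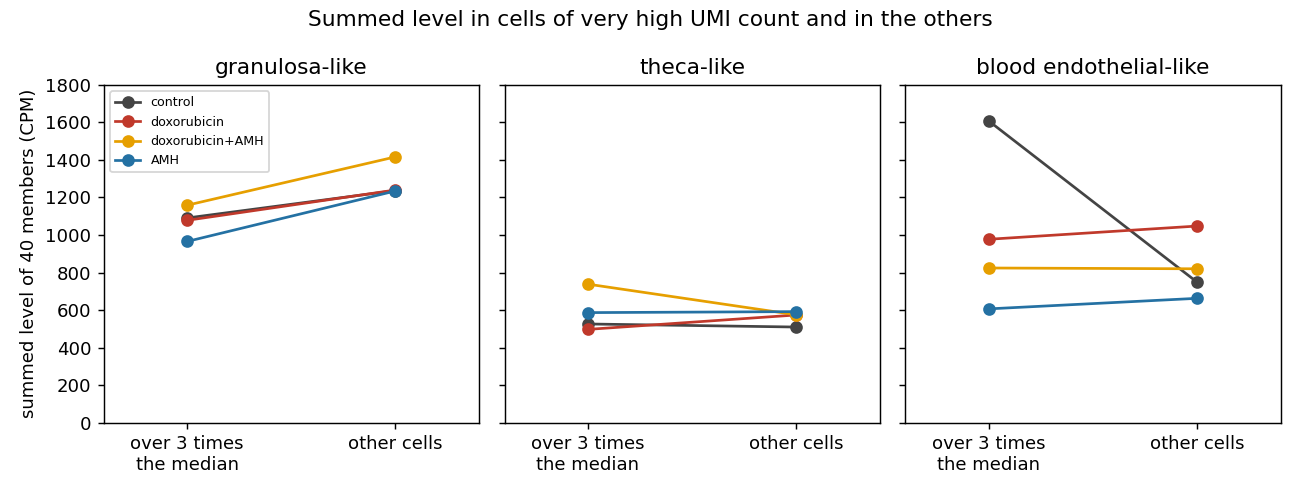
Summed level of the 40 genes (y axis, CPM) in cells over 3 times the median UMIs of their class and library and in the other cells, for 3 classes and 4 libraries (colours). In blood endothelial-like cells the control library separates, at 1608 against 748 CPM.

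The share of replication-high blood endothelial-like cells was 11.9% (7.30 to 17.9), 15.8% (9.63 to 23.8), 15.1% (6.75 to 27.6) and 4.49% (1.24 to 11.1), from 19 of 160, 18 of 114, 8 of 53 and 4 of 89 cells, with 11, 9, 10 and 11 left out. The intervals overlap, and those of the control and AMH libraries reach below the erythroid-like limit of the same library. No order is read, since the control share runs against its CPM. Without thinning the shares were 61.4, 68.3, 57.1 and 72.0%, at median depths of 10214, 12242, 10487 and 17917.5 UMIs. With a mitochondrial limit of 10% the AMH share was 13.3% and the control share 15.2%. The 8 endothelial markers summed to 5700, 5493, 4682 and 4329 CPM. The 7 stroma markers summed to 235, 326, 680 and 1242 CPM and the 8 mural markers to 560, 761, 1091 and 1573 CPM, in the reverse order of the replication genes. The 5 erythroid markers stood at 15.2 to 17.7 CPM in 3 libraries and at 303 CPM in AMH, and the 6 macrophage markers at 22.7 to 25.9 and 98.6 CPM. Of 12 genes of a dissociation stress list 10 lay above 0 for AMH / control, with a median of 0.39 and 4 past 1.5-fold (6.26% of all genes). Among them the heat shock genes Hspa1a, at 49.7, 70.2, 45.5 and 209 CPM, and Hspa1b, at 32.7, 42, 19.4 and 137 CPM, were highest in AMH, as they were in each of the 6 classes compared. The part of these genes and markers in the result was not tested.

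Of the 40 genes 31 passed in this class. For doxorubicin / control 5 lay above 0 and 26 below, with a median of -0.26 against -0.02 over 9266 genes, and 3 were past 1.5-fold lower and none higher, beside 2.16% of all genes lower and 2.43% higher. For doxorubicin+AMH / AMH 25 lay above and 6 below, with a median of 0.37 against 0.05, and 12 were past 1.5-fold higher and 2 lower (6.86 and 5.19% of all genes). With doublets kept 3 of 27 were higher and none lower, beside 3.56 and 2.01% of all genes. For AMH / control the 31 genes lay below 0, with a median of -1.01 against -0.09, and 23 were past 1.5-fold lower, beside 8.54% of all genes lower and 6.26% higher. With doublets kept 15 of 27 were lower, beside 4.04% of all genes. With the deep cells left out 27 of the 40 genes passed. Then 4 were past 1.5-fold lower for AMH / control, beside 917 of 9132 genes lower, so most of that count is lost. In that contrast 17 of the 27 lay below 0, beside 5361 of the 9132 genes, with medians of -0.09 and -0.08. For doxorubicin / control 23 of the 27 then lay above 0 and 12 were past 1.5-fold higher, beside 4.87% of all genes, a reversal. For doxorubicin+AMH / AMH 9 were then higher and 2 lower, beside 10.6 and 9.17% of all genes, and for doxorubicin+AMH / doxorubicin 8 were lower, beside 11.1%. For doxorubicin+AMH / doxorubicin 5 lay above and 26 below, with a median of -0.27 against -0.01, and 8 were past 1.5-fold lower and none higher (5.06 and 5.87% of all genes). Median-of-ratios scaling gave 5.38% of all genes higher and 6.49% lower for doxorubicin+AMH / AMH and 7.81 and 6.08% for AMH / control. The 9 genes that failed the filter, among them Cdt1, Orc1 and Cdc6, stood between 1.65 and 16.8 CPM.

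Clspn, the claspin that links stalled forks to the checkpoint kinase, stood at 40.6, 22.3, 10.1 and 12.9 CPM (143, 60, 12 and 39 UMIs), highest in control. Its log2 ratio was -1.52 (-2.21 to -1.14) for AMH / control. For doxorubicin / control it was -0.81 (-1.33 to -0.42), but 0.62 with each cell weighted equally. Without the deep cells both turned, to 0.24 and 1.39. Mcm7 stood at 44.9, 36.8, 14.3 and 22.8 CPM, lower in the libraries with AMH, with -0.92 (-1.41 to -0.56) for AMH / control. Cdc45, the helicase activator, stood at 11.4, 16.7, 8.42 and 4.62 CPM (40, 45, 10 and 14 UMIs), with 0.49 (-0.09 to 1.21) for doxorubicin / control and -1.01 (-2.29 to -0.39) for AMH / control. Pola2, the accessory subunit of polymerase alpha, stood at 25.0, 21.2, 10.1 and 17.5 CPM, lower with doxorubicin in both pairs. Rfc2, a loader subunit, at 41.5, 46.1, 38.7 and 27.4 CPM, and Gins4, at 25.9, 26.7, 30.3 and 17.1 CPM, were higher with doxorubicin, though intervals for doxorubicin / control spanned 0 for these 3 genes. Mcm5 stood at 26.1, 16.7, 18.5 and 7.58 CPM, with -1.55 (-2.51 to -1.11) for AMH / control. Fen1, the flap nuclease, had the lowest AMH / control ratio of the 31, -1.69 (-3.33 to -1.20), from 53 and 10 UMIs, and Rfc1 the one nearest 0, -0.20 (-0.49 to 0.07). Pcna stood at 130, 103, 80.9 and 72.2 CPM. These levels include the deep cells. With those left out, AMH / control was -0.42 (-1.20 to 0.27) for Mcm7, -0.92 (-3.03 to 0.32) for Cdc45, 0.40 (-0.76 to 1.75) for Mcm5 and -0.13 (-0.59 to 0.32) for Rfc1, all with intervals spanning 0. Fen1 then failed the filter, with 9 UMIs in control and 2 in AMH. Doxorubicin / control was then above 0 with its interval for Mcm5, 1.09 (0.22 to 2.41), Cdc45, 1.29 (0.54 to 2.44), and Rfc2, 0.68 (0.17 to 1.27).

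By role, over all cells and not recomputed without the deep ones, the AMH / control ratio in blood endothelial-like cells was lowest for checkpoint and chromatin assembly, -1.58 from 75.9 and 25.4 CPM. Nucleotide supply followed at -1.38, helicase at -1.16, polymerases at -0.86, origin licensing at -0.85, single strand binding at -0.78 and clamp and loader at -0.69. Mitotic genes differed the same way over all cells, with 25 of the 28 G2/M genes passing and the 25 past 1.5-fold lower for AMH / control (median -1.47; 8.54% of all genes) and higher for doxorubicin+AMH / AMH (median 1.05; 6.86% of all genes). Without the deep cells 21 passed, of which 13 were past 1.5-fold lower for AMH / control (median -0.70), beside 917 of 9132 genes. For doxorubicin+AMH / AMH 2 were higher and 4 lower (median -0.12), beside 10.6 and 9.17% of all genes. For doxorubicin+AMH / doxorubicin 20 of the 21 were lower (median -1.55), beside 11.1% of all genes. Over all cells 2 of 25 were lower in that contrast (median 0.05), beside 5.06%. For doxorubicin / control 12 of the 21 were higher and 1 lower (median 0.75), beside 4.87 and 6.87% of all genes. Over all cells 2 of 25 were lower there and none higher (median -0.30), beside 2.16 and 2.43%. Cdc20, which activates the anaphase complex, stood at 31.3, 34.9, 17.7 and 9.89 CPM, and Birc5, the survivin gene, at 101, 88.4, 62.3 and 35.0 CPM. Ube2c stood at 120, 126, 105 and 52.4 CPM, Cenpa at 74.4, 81.7, 64.0 and 39.6 CPM and Aurkb at 23.3, 23.8, 12.6 and 6.27 CPM, each lowest in AMH. Of the other replication genes 36 passed, 35 of them below 0 for AMH / control (median -0.72), against 24 of 34 without the deep cells (median -0.26). Over all genes 5640 of 9266 lay below 0 there (median -0.09), and 5361 of 9132 without the deep cells (median -0.08). Lig1, the ligase that joins Okazaki fragments, stood at 60.5, 50.5, 37.1 and 20.4 CPM, Pold3 at 37.8, 31.6, 20.2 and 22.4 CPM and Rbl1 at 21.0, 18.6, 11.8 and 11.5 CPM. Log2 ratios for doxorubicin / control and doxorubicin+AMH / AMH were 0.28 and 0.52 for Rnaseh2c, 0.26 and 0.72 for Donson, and -0.23 and -0.95 for Mcm9.

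Neighbouring vascular clusters did not all share this order. The mural cluster 19, led by the pericyte gene Rgs5, held 1060, 992, 880 and 641 CPM from 116, 81, 66 and 73 cells, with -0.73 (-0.89 to -0.56) for AMH / control and 0.46 (0.27 to 0.65) for doxorubicin+AMH / AMH. Lymphatic endothelial-like cells held 825, 711, 1196 and 1081 CPM from 78, 40, 45 and 59 cells, higher in AMH than in control by 0.39 (0.29 to 0.49) on the log2 scale. Neither was recomputed without deep cells.

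Across 92 sums of 1 cluster in 1 library, covering 30 clusters, the genes outside the 40 that followed their summed level most closely among 9872 were Lig1 (Spearman 0.943), the condensin gene Smc2 (0.928), Birc5 (0.915), the topoisomerase gene Top2a (0.909) and Dbf4, the activator of the Cdc7 kinase (0.908). These sums share libraries and depth, and the values are descriptions. Of the 40 genes 12 overlap an antisense gene in the GENCODE annotation and Chaf1b overlaps Gm49617 on the same strand. Pcna and Tyms have annotated pseudogenes, from which their reads might not be told apart.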

How the data were processed

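Single-cell libraries of ovaries were made with a droplet kit for 3′ transcript ends, per the labels' protocols. The deposited values are raw UMI counts for each gene in each cell, made with Cell Ranger 7.0.0 per the file headers. The genome mm10, R 4.2.0 and Seurat 4.1.0 are named in the submitters' processing notes. Whether intronic reads were counted is not given in the sources used here. Counts of 3′ ends were not divided by length, so levels of different genes are not compared; mean CPM served below only to choose which genes to name.

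Cells under 1000 UMIs, or with over 20% of UMIs from mitochondrial genes, were left out. Scrublet in scanpy 1.11.5 scored doublets; its automatic threshold marked 0 or 1 cells per library, so the highest scores were removed at 0.8% per 1000 cells (328 to 590 cells per library). Cells were clustered jointly on 2000 variable genes (30 components, 20 neighbours, Leiden resolution 1, leidenalg 0.10.2). A cluster was named where at least 3 markers and 60% of a list were raised, and not where its depth was under 33.3% of its libraries' median with no such marker among its top 10 genes.

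UMIs were summed per class and library. Intervals are exact (Poisson, Clopper-Pearson, conditional binomial; scipy 1.17.1). The interval and ratio code was tested on simulated data. The 40 genes and the other lists were chosen with earlier results of these data known.

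Named by rule were the 8 genes of highest mean CPM in granulosa-like cells, the 3 highest and 3 lowest per class by the ratio closer to 0 where both ratios of a treatment match in sign, the 5 most and 5 least raised in helicase-high cells, the 5 most alike outside the list, and the 3 largest per class of the other 2 lists. Of the genes so named, 1 is not reported here. Rfc4, Tyms, Cdkn1a, Fen1, theca-like Rrm2, and Mcm5, Pcna and Rfc1 in blood endothelial-like cells were chosen after their values were seen. So were Chaf1a, Clspn, Gins1, Gins3, Pole2 and Prim1 beside Cdc6 or Chaf1b, and the heat shock genes. Alternatives were other cell filters, doublets kept, median-of-ratios scaling, equal weight per cell, gating by own markers, another pseudocount and other filters on low CPM.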

Additional observations from a re-analysis of the deposited data

Results flagged for a closer look

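Summed log2 ratios of opposite sign, each with a counting interval clear of 0, stood out in 7 pairs, and with 1 library per group no such difference was tested. In granulosa-like cells the AMH ratio with doxorubicin exceeded that without it by 0.27 (0.18 against -0.09). In blood endothelial-like cells the doxorubicin ratio with AMH exceeded that without it by 0.66 (0.39 against -0.27). Without cells over 3 times the median UMIs the latter values were 0.31 and 0.49, both above 0 and in the other order, and those in granulosa-like cells were 0.19 and 0.00.

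Classes also differed under 1 contrast. For doxorubicin / control, theca-like cells exceeded blood endothelial-like cells by 0.37, but without the deep cells they stood at 0.17 and 0.49, the other order. For AMH / control, granulosa-like minus theca-like cells was -0.28 and theca-like minus blood endothelial-like cells was 1.15. Without the deep cells these 3 classes, granulosa-like first, stood at 0.00, 0.22 and -0.18. For doxorubicin+AMH / doxorubicin, granulosa-like cells exceeded blood endothelial-like cells by 0.48 and theca-like cells did so by 0.50, and without the deep cells the 3 stood at 0.19, 0.00 and -0.35.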

How the results depend on the processing

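No paired analysis was possible because each group had 1 library. Across the alternatives, summed log2 ratios stayed within the counting interval 62 times, moved outside it 43 times and reversed 7 times, and the cause was not tested. Contrasts are shortened to D/C, DA/A, A/C and DA/D (D doxorubicin, DA doxorubicin+AMH, A AMH, C control). Leaving out deep cells, taking cluster 15 alone, the mean over 4 clusters and the G2/M list within those clusters were chosen after seeing the data.

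In granulosa-like cells DA/A and DA/D stayed above 0 under every alternative run. D/C, DA/A, A/C and DA/D were 0.02, 0.24, -0.0726 and 0.15 with a mitochondrial limit of 10%. Median-of-ratios scaling gave 0.0355, 0.0144 (reversed) and 0.26 for D/C, A/C and DA/D. Equal weight per cell gave 0.21, 0.0046 (reversed) and 0.22 for DA/A, A/C and DA/D. Own-marker gating gave 0.0463 and 0.13 for D/C and DA/D, and doublets kept 0.16 for DA/D. The mean over 4 clusters gave -0.0509, 0.11 and 0.0103 (reversed) for D/C, DA/A and A/C. Without deep cells DA/A was 0.20 and A/C -0.0024.

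In theca-like cells A/C and DA/D stayed above 0 under these alternatives, and within cluster 9 they were 0.00 and -0.02. Own-marker gating gave -0.019 (reversed), 0.0628 and 0.0954 for D/C, DA/A and A/C. Equal weight gave 0.18, 0.0372 and 0.0459 for D/C, DA/A and DA/D. A minimum of 500 UMIs gave 0.18 and 0.0926 for D/C and DA/D, the 10% limit 0.11 and 0.13 for A/C and DA/D, and doublets kept 0.0656 for DA/A. Cluster 15 gave 0.42, 0.30 and 0.0177 for D/C, A/C and DA/D. Without deep cells D/C, DA/A and DA/D were 0.17, -0.0423 (reversed) and 0.0021.

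In blood endothelial-like cells DA/A stayed above 0 and A/C and DA/D below it under every alternative run. A/C was -0.82 with own-marker gating, -0.64 with doublets kept, -0.39 with equal weight, -0.87 with the other scaling, -0.73 with 500 UMIs, -0.82 with the 10% limit and -0.18 without deep cells. DA/A was 0.12, 0.26, 0.18 and 0.10 with own-marker gating, doublets kept, 500 UMIs and the 10% limit. DA/D was -0.13 with doublets kept and -0.46 with the 10% limit. D/C reversed to 0.29 with equal weight and 0.49 without deep cells.

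With equal weight the median gene reversed to 0.0066 (granulosa-like, A/C), -0.0057 (theca-like, DA/A) and 0.25 (blood endothelial-like, D/C), and Clspn in the last to 0.62. Without deep cells the median gene reversed to -0.0755 (theca-like, DA/A) and 0.44 (blood endothelial-like, D/C), Mcm4 in theca-like cells to -0.0199 (DA/D), and Clspn in blood endothelial-like cells to 1.39 (D/C) and 0.24 (A/C). Own-marker gating gave a median of -0.0373 for theca-like D/C. Counts past 1.5-fold in blood endothelial-like cells were 12 for DA/A higher and 3 to 6 with doublets kept, the 10% limit, 500 UMIs, own-marker gating or a mean of at least 20 CPM, beside 3.56 to 7.29% of all genes. The genes that passed numbered 31, and 27, 30, 29, 33 and 17 in these settings. For A/C lower they were 23, against 15 with doublets kept and 11 at 20 CPM (4.04 and 7.21% of all genes). For DA/D lower they were 8, against 2 with doublets kept, 4 at 20 CPM and 13 with the 10% limit (3.05, 3.36 and 6.50%). For D/C lower they were 3, against 6 of 40 with no filter, 5 with own-marker gating and 1 at 20 CPM (4.21, 3.16 and 1.20%). Without deep cells they were 4 for A/C lower (917 of 9132 genes) and 0 for D/C lower, with 12 D/C higher against 0 (4.87% of all genes), of 27 genes, and 18 of 38 granulosa-like genes lay above 0 for A/C, against 10 of 38. With no filter 25, 26, 31 and 33 of 40 theca-like genes lay above 0 in D/C, DA/A, A/C and DA/D, against 11, 14, 13 and 15 of 19. With no filter 1, 1, 4 and 2 of 40 were higher past 1.5-fold (0.698, 0.517, 5.03 and 4.05% of all genes), against 0, 0, 1 and 0 of 19. At 20 CPM 5, 8, 5 and 7 of 9 theca-like genes lay above 0, as did 13 (D/C) and 23 (DA/A) of 23 granulosa-like genes, against 22 and 38 of 38, and 12 of 17 blood endothelial-like genes (DA/A), against 25 of 31. Of the 3 classes depth was lowest in blood endothelial-like cells, with 1187265 to 3519570 UMIs per library against 60248679 to 73890476 in granulosa-like cells, and their counting intervals are wider.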
